A study of Mus musculus with 22 samples.

Results

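Imprinted genes are expressed from only the maternal or the paternal chromosome, and 42 of them were followed here through open chromatin in male mouse germ cells. Their regions were the peaks that overlapped the body of a member gene or its 2 kb flanks, each peak counted once, which gave 148 of the 96049 peaks of the table. Of these, 138 touched a gene body. A peak was found for 41 of the 42 genes, the exception being Rian, a non-coding RNA of the Dlk1 cluster. Accessibility was measured by ATAC-seq, in which Tn5 transposase cuts and tags open DNA, in 22 libraries.

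The libraries came from C57BL/6 mice of 8 to 12 weeks. Those used for spermatogonia had received tamoxifen, which switches on a CreER recombinase expressed from the Tert locus together with a tdTomato reporter that Cre releases. The genotype entry, TertCreER/+:Rosalsl-Tdtomato/+, was the same for deleted and control spermatogonia, so that the deletion of TERT, the catalytic subunit of telomerase, rests on the sample titles, which call the controls TERT-heterozygous. Spermatogonia were sorted on day 7. The KIT-negative gates, MCAM-high and MCAM-medium, hold undifferentiated spermatogonia, and the KIT-positive gate, also of medium MCAM, holds differentiating ones. The deleted groups held 3 libraries in each of the 3 populations, and the control groups held 3 MCAM-high, 2 MCAM-medium and 3 KIT-positive libraries. A further 5 libraries of later germ cells came from TertTdtomato/+ animals, with no time point entry. For 4 of these 5 the title and the library name gave different cell types, spermatocyte or round spermatid, so they were kept as 1 group. Because they also differ in genotype and possibly in tamoxifen treatment and batch, an effect of stage cannot be told apart from any of these. Library names share a source number across gates (1 to 3 in control and in deleted cells), but the labels do not say whether a number stands for 1 animal. All 5 later libraries carry the same source number, 1, so that they may come from a single animal. The p-values therefore reflect only how these libraries vary, which may be technical, and those of the later comparisons may rest on 1 later animal.

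Each imprinted cluster is governed by a differentially methylated region that keeps, from the germ line onwards, DNA methylation on a single parental copy. In most clusters this region is a promoter methylated on the maternal copy, often that of a non-coding RNA such as Airn or Kcnq1ot1, whereas a few, next to H19, Meg3 and Rasgrf1, are methylated on the paternal copy. Other genes of a cluster gain their bias secondarily, under the control of such a region. In the male germ line the imprints are reset, so that both chromosomes of a spermatogonium carry the paternal pattern, with maternally methylated regions unmethylated and paternally methylated ones methylated. The counts are not split by parental copy.

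By class, 110 peaks belonged to 24 genes at or around a maternally methylated region, 21 to 8 genes of paternally methylated domains and 15 to 9 secondarily imprinted genes. The remaining 2 lay at L3mbtl1, a chromatin reader whose imprinting is known from human, and were not classed. Of the 148 peaks, 29 overlapped a 300-base promoter window around an annotated start (19.6%, against 14.3% of all peaks). Those 29 served 28 genes, out of 34 with a window in the RefSeq table. H19, Peg10, Sgce, Kcnq1, Cdkn1c, Impact, Trappc9 and Kcnk9 had no window there, and Meg3, Rian, Mirg, Nnat, Gnas and Slc38a4 had no peak at theirs. Exon, intron or UTR positions were not used here. The exact methylated regions were not used either, so the start of a maternal-class gene need not lie in one. The libraries held between 922085 and 3358377 counts each, so 3 counts were worth 0.893 to 3.25 CPM, the count scaled by the library total. At 5 genes of spermatid markers (Prm1, Prm2, Tnp1, Acrv1 and Hils1) the summed level ran from 148 to 228 CPM in later germ cells and from 4.70 to 16.6 CPM in spermatogonia. The sum over 5 spermatocyte markers was 308 to 386 CPM in later germ cells and 84.4 to 150 CPM in spermatogonia. For 8 spermatogonial markers it was 240 to 298 CPM in later germ cells and 276 to 602 CPM in spermatogonia, so that these ranges overlap. Of markers of other testis cells, 1 of 6 Leydig and 1 of 5 immune genes had a peak, as had 4 of 6 Sertoli and 4 of 6 endothelial or peritubular genes. The summed Sertoli level was 37.3 to 45.1 CPM in later germ cells and 47 to 93.5 CPM in spermatogonia, and the endothelial and peritubular sum 22 to 36.4 CPM and 60.7 to 106 CPM in the same 2 sets. Their part in the results was not tested.

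The promoters of 6 genes whose start peaks passed between later germ cells and control KIT-positive cells are shown first, chosen after their values were seen and not as the most changed ones, 3 that were higher in later germ cells (Snrpn, Kcnq1ot1, Mcts2) and 3 that were lower (Peg3, Inpp5f, Ndn). They run 5′ to 3′ on the strand of the gene, from 250 bases before the start to 50 after it, in RefSeq of GRCm38.p6. Capitals mark TGCCGC or its reverse complement GCGGCA, the 6-base motif bound by ZFP57, a zinc finger protein that protects imprints when its motif is methylated.
Snrpn (chr7:60005150-60005449, minus strand): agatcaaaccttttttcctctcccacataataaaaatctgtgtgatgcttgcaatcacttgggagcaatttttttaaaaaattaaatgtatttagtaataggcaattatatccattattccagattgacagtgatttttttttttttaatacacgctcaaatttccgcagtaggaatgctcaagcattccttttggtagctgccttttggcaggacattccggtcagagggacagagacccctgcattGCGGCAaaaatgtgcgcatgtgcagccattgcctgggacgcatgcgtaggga
Kcnq1ot1 (chr7:143296498-143296797, minus strand): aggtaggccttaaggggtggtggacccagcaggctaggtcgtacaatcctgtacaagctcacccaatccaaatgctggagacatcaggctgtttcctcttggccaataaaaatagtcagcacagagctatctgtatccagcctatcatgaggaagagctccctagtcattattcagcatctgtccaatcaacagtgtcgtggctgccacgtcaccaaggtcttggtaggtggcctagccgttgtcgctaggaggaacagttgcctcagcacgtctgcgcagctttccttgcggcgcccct
Mcts2 (chr2:152686898-152687197, plus strand): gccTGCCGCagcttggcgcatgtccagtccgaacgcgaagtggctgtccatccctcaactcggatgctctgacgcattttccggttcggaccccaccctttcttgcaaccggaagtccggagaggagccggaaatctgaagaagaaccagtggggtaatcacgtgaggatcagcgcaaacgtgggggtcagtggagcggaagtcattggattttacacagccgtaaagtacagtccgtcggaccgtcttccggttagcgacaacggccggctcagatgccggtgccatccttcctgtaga
Peg3 (chr7:6730370-6730669, minus strand): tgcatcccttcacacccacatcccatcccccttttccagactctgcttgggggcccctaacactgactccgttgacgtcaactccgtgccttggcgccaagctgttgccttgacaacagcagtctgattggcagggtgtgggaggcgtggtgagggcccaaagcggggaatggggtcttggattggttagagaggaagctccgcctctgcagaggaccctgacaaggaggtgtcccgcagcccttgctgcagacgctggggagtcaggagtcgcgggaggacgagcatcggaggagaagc
Inpp5f (chr7:128611115-128611414, plus strand): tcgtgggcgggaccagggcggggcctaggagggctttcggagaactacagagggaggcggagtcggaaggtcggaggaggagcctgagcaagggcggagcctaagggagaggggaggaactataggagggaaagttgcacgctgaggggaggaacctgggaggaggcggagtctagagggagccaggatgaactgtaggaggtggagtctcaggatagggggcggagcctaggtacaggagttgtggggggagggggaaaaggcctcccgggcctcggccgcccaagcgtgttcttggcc
Ndn (chr7:62348027-62348326, plus strand): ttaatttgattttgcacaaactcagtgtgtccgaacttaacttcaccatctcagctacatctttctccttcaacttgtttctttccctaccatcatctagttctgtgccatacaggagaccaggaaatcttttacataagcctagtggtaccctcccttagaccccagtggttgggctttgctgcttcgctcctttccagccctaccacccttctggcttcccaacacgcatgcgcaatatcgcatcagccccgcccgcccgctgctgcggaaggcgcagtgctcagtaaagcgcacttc

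The motif stood in 9 of 31 promoter windows of maternal-class genes (29%), in 2 of 11 paternal-class and in 1 of 7 secondary windows. Of the 32851 windows of all genes, searched on both strands, 11.6% held it. Among maternal-class windows that overlapped a peak it was found in 8 of 19 (42.1%), at Snrpn, Mcts2, Plagl1, Nap1l5, Grb10, Commd1 and both overlapping windows of Mest. Of the promoters printed, those of Snrpn and Mcts2 hold it and the other 4 do not. The windows of member genes were also rich in CpG, with a median of 17 CpG dinucleotides in the maternal, 10 in the paternal and 20 in the secondary class, against 7 over all windows. These matches describe letters and not binding.

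At annotated starts the median level of the maternal and secondary classes lay above that of all starts in each of the 6 spermatogonial groups, and the median of the paternal class below it. Single genes crossed these lines: the Rasgrf1 start of the paternal class was near the median of all starts, and the maternal-class starts of Grb10 (chr11:12037179-12037547) and of the downstream Mest transcripts (chr6:30738085-30738353) averaged 4.13 and 4.93 CPM in deleted and 5.40 and 6.16 CPM in control MCAM-high cells. In deleted MCAM-high cells the median level at annotated starts was 34.8 CPM for the 17 maternal-class peaks, 47.3 CPM for the 7 secondary peaks and 4.26 CPM for the 4 paternal-class peaks, against 21.7 CPM for all 13776 peaks at starts. In control MCAM-high cells the same medians were 35.4, 47.6, 4.83 and 21.1 CPM. Later germ cells had 23.1, 8.68 and 2.29 CPM in the 3 classes, against 23.5 CPM at all starts. Levels are TMM-scaled CPM per peak, not per length, so that wide peaks collect more counts.

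The highest member was a peak of 2274 bp inside Peg3, a zinc finger gene expressed from the paternal copy (chr7:6727511-6729784), which began 635 bp downstream of the Peg3 start and 799 bp upstream of that of Usp29, a ubiquitin peptidase gene that runs the other way. It exceeded 99.99% of all peaks in control MCAM-high cells. Next came a peak in Impact (chr18:12973220-12974552), an inhibitor of the GCN2 kinase, at 207 ± 50.4 CPM in control MCAM-high cells (SD, n = 3). Among secondary genes the start of Ube3a, the ubiquitin ligase lost in Angelman syndrome (chr7:59228163-59229729), was highest at 127 ± 16.5 CPM in the same cells.

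In the paternal class the H19 peak, which covers the 5′ end of this non-coding RNA's annotated body (chr7:142577804-142578490), ranged over groups from 9.23 to 13.9 CPM. The start peak of Dlk1, a transmembrane ligand of the Notch family (chr12:109452864-109453064), stayed at 3.39 and 2.85 CPM on average in deleted and control MCAM-high cells, near the worth of 3 counts. At Rasgrf1, a guanine exchange factor for RAS, the start (chr9:89909357-89910209) had 20.6 ± 3.49 CPM in deleted and 21.6 ± 1.02 CPM in control MCAM-high cells (SD, n = 3 each), the highest of the start peaks in this class.

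**Figure D1:**
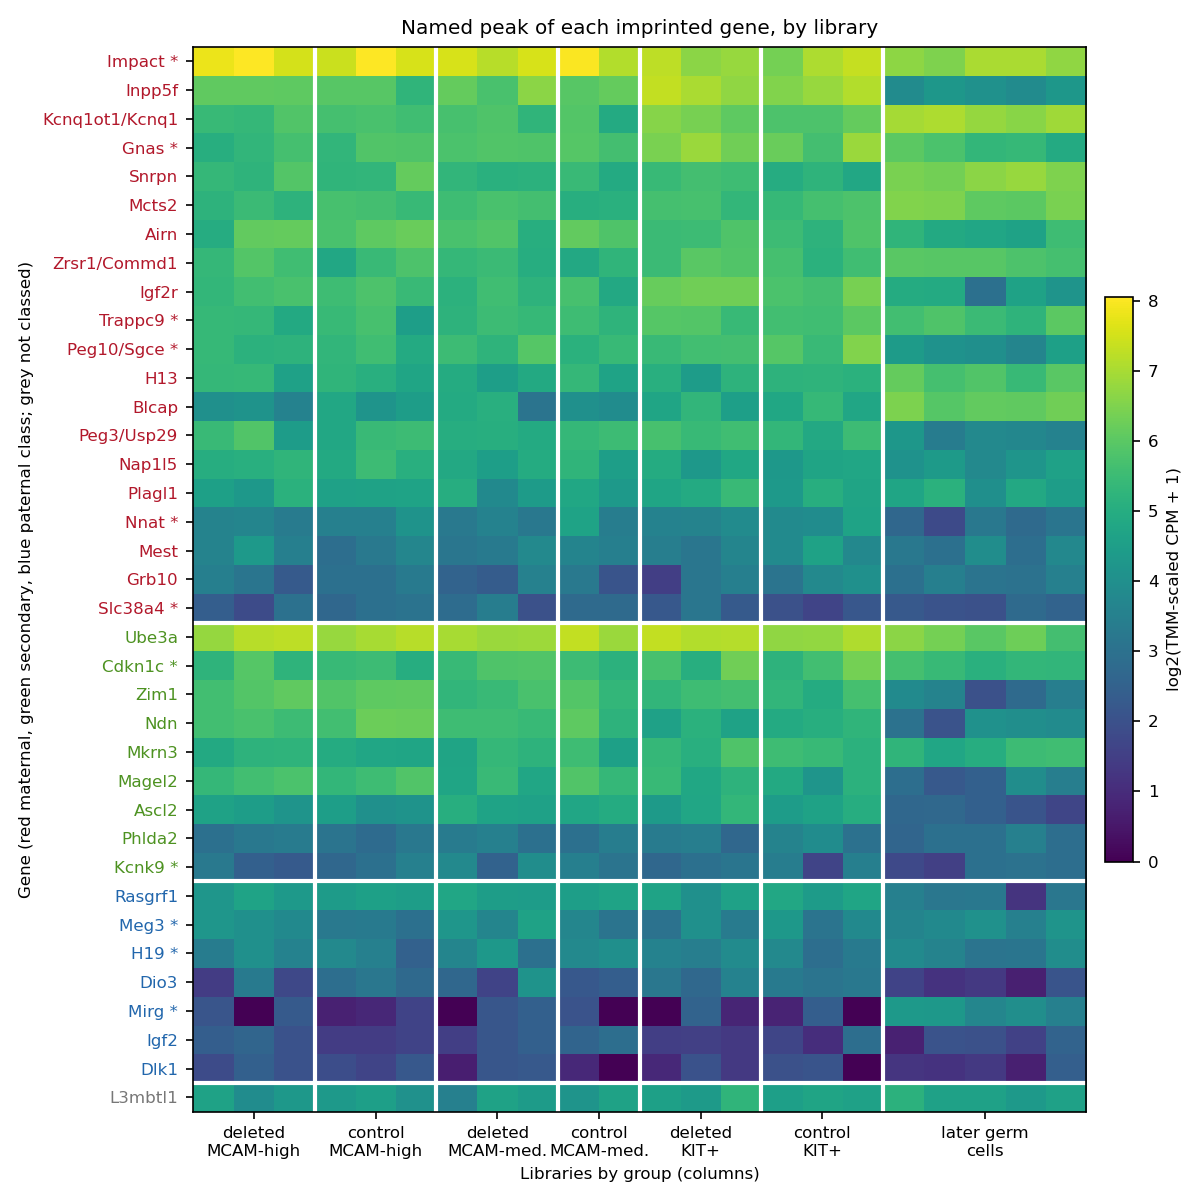
TMM-scaled accessibility of the named peak of each imprinted gene (rows, grouped by class) in all 22 libraries (columns, grouped by population), as log2(CPM + 1); an asterisk marks a gene without a peak at an annotated start, for which its strongest peak is shown. Impact and Ube3a are bright throughout, most of the paternal class is dim, and several secondary genes are dimmer in the 5 later libraries, such as Ndn at 11 CPM against 33.1 CPM in control KIT-positive cells.

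The first comparison asked whether acute deletion of TERT changes accessibility at imprinted genes. No member peak passed in any population. At an adjusted p under 0.05 (Benjamini-Hochberg over 57289 peaks, edgeR quasi-likelihood test), 0 of 102 tested members were called in MCAM-high, MCAM-medium or KIT-positive cells or in the mean of the 3 populations. Of all tested peaks, 0.0489%, 0.00873%, 0.00349% and 0.124% were called in these 4 comparisons. In KIT-positive cells 0.00175% of peaks were higher and 0.00175% lower, and in the mean 0.103% and 0.0209%. In the 2 KIT-negative populations 0 peaks were lower. At an unadjusted p under 0.05 there were 3, 5, 4 and 5 of the 102 members, against 3355, 2437, 2056 and 3167 of the 57289 peaks, and DESeq2 also called 0. The median log2 fold change of the members was -0.05, -0.03 and 0.01 in the 3 populations, against -0.04, 0.02 and -0.0025 for all tested peaks.

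Single genes show the width of what was not resolved. In the mean of the populations the start of Inpp5f, an inositol phosphatase gene, differed by 0.21 ± 0.15 SE (edgeR adjusted p = 0.963), and the body peak of Peg3 by 0.01 ± 0.10 (edgeR adjusted p = 0.999). The peak in Nnat, a proteolipid gene nested in an intron of Blcap (chr2:157561221-157561678), had -0.56 ± 0.25 SE (edgeR adjusted p = 0.846), and the start of Ndn, which encodes the growth suppressor necdin, -0.31 ± 0.15 (edgeR adjusted p = 0.903). Ndn had 48.5, 52.3 and 45 CPM in the deleted and 47.7, 75.2 and 73.3 CPM in the control MCAM-high libraries, and the 2 ranges overlap.

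The lowest unadjusted p of the mean belonged to a peak in the upstream flank of Mest, a hydrolase gene expressed from the paternal copy (chr6:30731761-30732159). It had 4.29, 1.37 and 1.51 CPM in deleted MCAM-medium cells, while both control libraries were at 0. Over all counts of these groups that was 11 against 0, at least 3.37-fold higher when 3 counts over the control group are taken as the floor. All 3 deleted libraries thus stood above both controls, at levels close to the worth of 3 counts, and the edgeR adjusted p was 0.989 in these cells and 0.447 in the mean. In KIT-positive cells the same peak had 17.3, 10.5 and 10.8 CPM in deleted and 11.2, 20.5 and 13 CPM in control libraries, which overlap.

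In the paternal class, too, no peak passed. A peak in Meg3, the growth-suppressing non-coding RNA of the Dlk1 cluster (chr12:109542786-109543313), had 17.9, 15.5 and 13.2 CPM in deleted and 8.59, 8.97 and 6.81 CPM in control MCAM-high cells, ranges that do not overlap, with a log2 difference of 0.89 ± 0.42 SE (edgeR adjusted p = 0.816). In KIT-positive cells it had 7.28, 15.4 and 9.27 CPM in deleted and 18.7, 7.55 and 13 CPM in control libraries, which overlap. Differences of the deletion effect between populations were called at 0 members by edgeR and by DESeq2, with 5, 2 and 3 of 102 at an unadjusted p under 0.05 when KIT-positive cells were set against MCAM-high, MCAM-medium against MCAM-high, and KIT-positive against MCAM-medium cells. Across all peaks these differences also gave 0% called, with 2855, 2476 and 2372 of 57289 peaks at an unadjusted p under 0.05. In simulated data for the stage comparison of control cells, on the same 57289 peaks, 7 of 100 peaks changed 2-fold and 46 of 100 changed 4-fold were recovered. Thus 2-fold effects at peaks drawn at random, with few peaks changed, were mostly not recovered. The deletion comparison was not simulated, and the recovery at members with high counts was not tested.

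**Figure D2:**
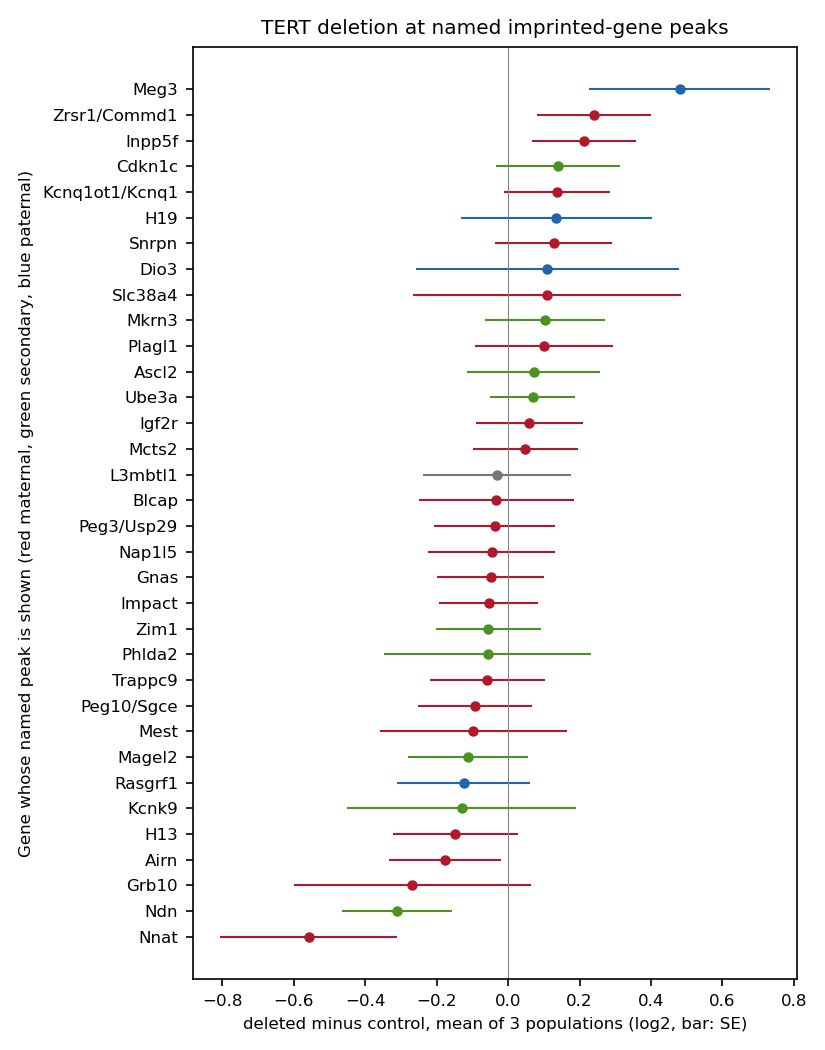
Log2 fold change of deleted against control cells, averaged over the 3 spermatogonial populations, at the named peak of each gene that was tested (points, coloured by class; bars, 1 SE). The values run from -0.56 at Nnat to 0.48 at Meg3 and none passed.

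The second comparison followed imprinted genes from undifferentiated to differentiating cells. In controls, accessibility rose from MCAM-high to KIT-positive cells at single peaks in or near Peg3, Inpp5f, Mest and Gnas and fell at 3 of the 14 tested peaks of Usp29 and at 1 other peak of Gnas. Against control MCAM-high cells, 8 members were higher and 10 lower of 102 tested (17.6%, against 15.8% of all tested peaks, of which 9.64% higher and 6.11% lower). The share of members called was thus near that of all peaks. All 8 higher peaks and 6 of the lower ones were of the maternal class, 3 lower ones were secondary (Ndn, Magel2 and Zim1) and 1 was paternal (Rasgrf1). Of the tested peaks 74 were maternal, 14 secondary and 12 paternal. The shares called were 18.9%, 21.4% and 8.33% in these classes, against 15.8% of all peaks, and the classes were not compared by a test. With total counts in place of TMM scaling 5 members were higher and 19 lower, and all peaks were 4067 higher and 5005 lower in place of 5522 and 3502, and the median of all peaks was -0.22 in place of -0.05 (log2). In bulk cells, a change in the mix of cells and a change of accessibility per cell cannot be told apart.

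The Peg3 body peak had 687, 539 and 751 CPM in control KIT-positive and 322, 312 and 389.7 CPM in control MCAM-high libraries. Every KIT-positive library lay above every MCAM-high one, and the log2 fold change was 0.93 ± 0.17 SE (edgeR adjusted p = 1.71e-04). Control MCAM-medium cells, at 329 and 326 CPM, sat with MCAM-high cells, and against them the difference was 0.98 ± 0.20 (edgeR adjusted p = 0.00101). The call against MCAM-medium was lost without control MCAM-medium replicate 1. At the start itself, shared by Peg3 and Usp29 (chr7:6730147-6730652), the level was 37.3 ± 8.55 CPM in KIT-positive and 38.3 ± 9.74 CPM in MCAM-high cells (SD, n = 3 each), and the log2 difference of -0.03 ± 0.28 did not pass (edgeR adjusted p = 0.965). Whether the 2 peaks differed in their change was not tested.

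Further along the same locus, 3 of the 14 tested Usp29 peaks fell, 1 rose (the peak shared with Peg3) and 10 did not pass. The one 204899 bp inside the gene (chr7:6935482-6936304) had 4.49, 4.32 and 4.73 CPM in control KIT-positive and 24.7, 31.6 and 50.3 CPM in control MCAM-high libraries, without overlap, a log2 difference of -2.95 ± 0.43 SE (edgeR adjusted p = 3.64e-06). Peaks 121092 bp and 130089 bp inside fell by 2.71 and 3.17 on the log2 scale (edgeR adjusted p = 2.65e-04 and 1.31e-04).

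Inpp5f opened at its annotated start (chr7:128610868-128611920), with 91.2, 111 and 139 CPM in control KIT-positive and 61.1, 61.5 and 37.2 CPM in control MCAM-high libraries and no overlap, by 1.08 ± 0.24 SE (edgeR adjusted p = 0.00141). Of the 3 tested Inpp5f peaks this was the only one called. A peak 76369 bp inside the gene (chr7:128687734-128688636) did not pass. Upstream of Mest the flank peak had 11.2, 20.5 and 13 CPM in control KIT-positive cells, against 1.37, 0 and 0 CPM in control MCAM-high and 0 and 0 CPM in control MCAM-medium cells. The log2 difference from MCAM-high cells was 4.58 ± 0.80 SE (edgeR adjusted p = 7.03e-05). It was at least 19.1-fold higher than in MCAM-medium cells, whose libraries held 0 counts. The 2 start peaks of Mest did not pass: the log2 differences were 0.84 ± 0.43 (edgeR adjusted p = 0.182) at the upstream start and 0.13 ± 0.60 (edgeR adjusted p = 0.913) at the downstream start. A peak in Gnas, which encodes the stimulatory G protein alpha subunit (chr2:174333495-174333817), had 17.9, 7.55 and 18.9 CPM in control KIT-positive and 0, 0.854 and 1.57 CPM in control MCAM-high libraries, higher by 4.22 ± 0.76 SE (edgeR adjusted p = 1.08e-04) on the log2 scale. Of the 9 tested Gnas peaks this was the only one called higher, and another, 15593 bp inside the gene (chr2:174299913-174300216), was lower. That peak had 5.98, 4.32 and 0.591 CPM in control KIT-positive and 10.3, 9.83 and 14.7 CPM in control MCAM-high libraries, without overlap, a log2 difference of -1.75 ± 0.56 SE (edgeR adjusted p = 0.0268), lost without control MCAM-high replicate 3 or control KIT-positive replicate 3. Against MCAM-medium cells the higher peak passed again (edgeR adjusted p = 0.00784; lost without control MCAM-medium replicate 1 or 2), and a peak 3270 bp inside Gnas differed by -2.16 ± 0.60 (edgeR adjusted p = 0.0161; lost without control MCAM-medium replicate 1 or 2 or control KIT-positive replicate 2 or 3 and, like the higher peak, with the source number as a replicate block).

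Within Igf2r, the clearance receptor for IGF2, and the overlapping antisense RNA Airn that silences it on the paternal copy, a peak 8957 bp inside Airn (chr17:12750268-12750945) had 52.3, 38.8 and 50.2 CPM in control KIT-positive and 18.2, 23.1 and 27.8 CPM in control MCAM-high libraries. Again the 2 groups did not overlap, and the log2 fold change was 1.03 ± 0.30 SE (edgeR adjusted p = 0.0132), a call lost without control MCAM-high replicate 1 (adjusted p up to 0.0587). The 2 starts of this locus did not pass: Airn (chr17:12741199-12742928) differed by -0.48 ± 0.26 (edgeR adjusted p = 0.213) and Igf2r (chr17:12768942-12770300) by 0.37 ± 0.24 (edgeR adjusted p = 0.318). A peak 1340 bp wide in Trappc9, a trafficking complex gene, overlapped the non-coding RNA gene Peg13 (chr15:72809580-72810919) and was 0.86 ± 0.27 higher (edgeR adjusted p = 0.0212), lost without control MCAM-high replicate 2 or control KIT-positive replicate 2 or 3, with total counts and with no filter on low counts.

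Against MCAM-high cells 3 of 14 tested secondary peaks passed, all lower (21.4%, against 15.8% of all peaks called and 6.11% lower). Against MCAM-medium cells 0 of 14 passed, against 9.32% of all peaks. With 14 peaks these counts are small, and their difference from the shares of all peaks was not tested. Ndn had 29.2, 32.4 and 37.8 CPM in control KIT-positive libraries, all below the 47.7, 75.2 and 73.3 CPM of control MCAM-high libraries, a log2 difference of -0.98 ± 0.26 SE (edgeR adjusted p = 0.00579). Magel2, a MAGE protein gene next to Ndn (chr7:62376707-62377611), differed by -0.79 ± 0.28 (edgeR adjusted p = 0.0466), a call lost without control MCAM-high replicate 2 or 3 or control KIT-positive replicate 1 or 2. Zim1, a zinc finger gene of the Peg3 cluster (chr7:6696053-6696871), differed by -0.69 ± 0.24 (edgeR adjusted p = 0.0438), lost without control MCAM-high replicate 1, 2 or 3 or control KIT-positive replicate 1 or 2. The Magel2 and Zim1 calls were also lost with the source number as a replicate block. The cell cycle inhibitor gene Cdkn1c kept 55.5 CPM in KIT-positive and 39.4 CPM in MCAM-high cells on average, and its log2 difference of 0.49 ± 0.29 did not pass. In the paternal class a peak 43694 bp inside Rasgrf1 (chr9:89953469-89954213) had 8.23, 0 and 8.28 CPM in control KIT-positive and 14.8, 29.9 and 25.1 CPM in control MCAM-high libraries, a difference of -1.95 ± 0.46 SE (edgeR adjusted p = 0.00226).

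The Impact peak fell too. Its libraries had 81.5, 133 and 162 CPM in control KIT-positive and 169.7, 264 and 188 CPM in control MCAM-high cells, with every KIT-positive value below the lowest MCAM-high one, by -0.73 ± 0.23 SE (edgeR adjusted p = 0.0242). The call was lost without control MCAM-high replicate 2 or control KIT-positive replicate 1. At Inpp5f, Impact and Rasgrf1, 0 peaks passed against control MCAM-medium cells. Against these cells, which share the KIT-positive libraries with the comparison above, 7 members were higher and 5 lower of 102 (11.8%, against 9.32% of all peaks, 5.70% higher and 3.62% lower), among them the Peg3 body, Mest and Gnas peaks and the 3 Usp29 peaks. With total counts in place of TMM these were 5 higher and 12 lower. The count of calls under TMM fell to 5 with the shared source number as a replicate block. Leaving out either MCAM-medium library leaves a single one assumed to vary like the other groups. Between MCAM-medium and MCAM-high controls edgeR called 0 of 102 members, with 0 at an unadjusted p under 0.05, DESeq2 called 0 with 1 at an unadjusted p under 0.05, and 0% of all peaks passed.

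Deleted cells gave the same comparison in libraries that the control one did not use. Between deleted KIT-positive and deleted MCAM-high cells 8 members were higher and 8 lower of 102 (15.7%, against 13.7% of all peaks, 9.39% higher and 4.35% lower). With total counts the members were 6 higher and 10 lower, and all peaks 3576 higher and 4154 lower in place of 5382 and 2492. Of the 8 higher in control cells, 5 were called in deleted cells, and of the 10 lower, 5. The 5 shared higher peaks are 62.5% of either list of 8. Over all peaks 3342 of the 5522 higher ones and 1203 of the 3502 lower ones were shared, 60.5% and 34.4%. All 8 and all 10 had the same sign in deleted cells, as had 5412 of the 5522 and 3313 of the 3502.

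The Peg3 body peak was higher here too, with 661, 859 and 733 CPM in deleted KIT-positive and 249, 283 and 367 CPM in deleted MCAM-high libraries, by 1.31 ± 0.18 SE (edgeR adjusted p = 1.50e-06). Inpp5f differed by 0.96 ± 0.24 SE (edgeR adjusted p = 0.00534), a call lost without deleted KIT-positive replicate 1. The Mest flank differed by 2.83 ± 0.76 SE (edgeR adjusted p = 0.00836), lost without deleted MCAM-high replicate 3 or deleted KIT-positive replicate 1. For the Igf2r and Airn body peak the difference was 1.10 ± 0.31 SE (edgeR adjusted p = 0.0133), lost without deleted MCAM-high replicate 1 or 2 or deleted KIT-positive replicate 2 and with total counts. Impact differed by -0.90 ± 0.23 SE (edgeR adjusted p = 0.00685), lost without deleted MCAM-high replicate 2 or deleted KIT-positive replicate 2. Kcnq1ot1, the RNA that silences its cluster on the paternal copy, passed at its start in deleted cells but not in control cells (chr7:143295236-143296982), with 94.6, 83.4 and 64.9 CPM in KIT-positive and 41.7, 40.0 and 57.4 CPM in MCAM-high libraries (0.79 ± 0.25 SE, edgeR adjusted p = 0.0267). In control cells its difference was 0.25 ± 0.25 (edgeR adjusted p = 0.543), and the difference between the 2 effects did not pass (0.55 ± 0.35, adjusted p = 0.996). The deleted call was lost without deleted MCAM-high replicate 1 or 2 or deleted KIT-positive replicate 1 or 2, with total counts and with the replicate block. The count of 16 fell to 9 without deleted MCAM-high replicate 2, to 8 without deleted KIT-positive replicate 1 and to 9 without deleted KIT-positive replicate 2.

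**Figure D3:**
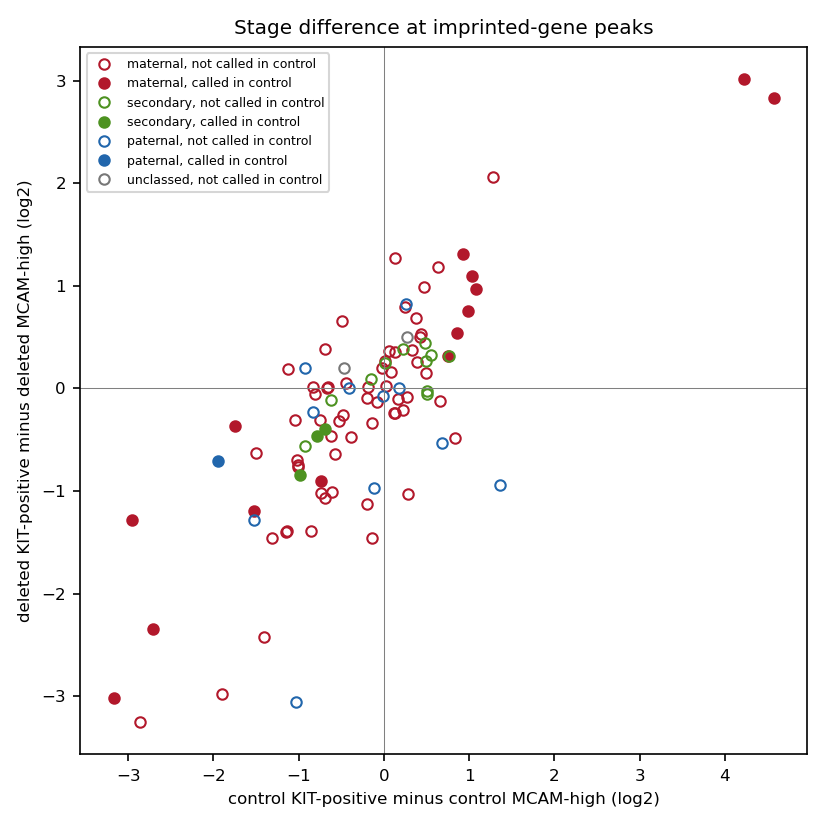
Log2 difference between KIT-positive and MCAM-high cells in deleted (vertical axis) against control (horizontal axis) libraries for the 102 tested member peaks, coloured by class; filled points passed in control cells. Mest and Gnas peaks stand at the upper right, with control values of 4.58 and 4.22, and 3 Usp29 peaks at the lower left.

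The third comparison set later germ cells against spermatogonia. Against control KIT-positive cells, accessibility was lower at Peg3, Igf2r, Inpp5f and several secondary genes and higher at the Snrpn, Kcnq1ot1, Mcts2 and Blcap starts. Inside Trappc9, Kcnq1 and Mirg lay peaks of later germ cells with almost no counts in spermatogonia. Of 122 tested members, 28 were higher and 41 lower (56.6%, against 52.0% of all peaks, 29.2% higher and 22.8% lower). The spermatogonial fit had tested 102 members. Trappc9 had 8 tested peaks here and 3 in that fit, Kcnq1 7 and 3, and Mirg 3 and 0. Where a peak passed the filter only through the later libraries, a higher call is a description only. Such peaks are part of the higher counts of both later comparisons, and no count without them was made. Lower calls were more frequent among members than higher ones, the reverse of all peaks, with a median log2 fold change of -0.42 against 0.12 for all tested peaks. These counts are of peaks and not of genes: Usp29 and Gnas each held 6 of the lower peaks and Airn 5. With the size factors of DESeq2 in place of TMM, which move the median of all peaks to 0.31, members were 32 higher and 35 lower.

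By class, maternal-class peaks were 22 higher and 30 lower of 89 tested, paternal-class peaks 5 higher and 3 lower of 17, and secondary peaks 0 higher and 8 lower of 14. Their medians were -0.37, -0.0042 and -1.10 (log2). Differences between classes were not tested. The spermatogonial fit had tested 74 maternal-class, 12 paternal-class and 14 secondary peaks. Of the 5 higher paternal-class peaks, 3 lay in Mirg, which had 0 tested peaks in that fit. Against control MCAM-high cells, which share the later libraries, 26 members were higher and 54 lower (65.6%, against 58.4% of all peaks, 33.5% higher and 24.9% lower), of which the secondary peaks were 0 higher and 7 lower. Of the 54 lower peaks, 13 lay in Usp29, 7 in Airn and 6 in Gnas. Leaving out each library in turn gave 59 to 70 and 76 to 81 calls. Using only the 3 later libraries whose library name says round spermatid gave 59 and 75 calls, and only the 2 named spermatocyte 51 and 60, alternatives chosen after seeing the data.

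The Peg3 body peak had 82.8, 69.5, 63.2, 44.8 and 64.2 CPM in later germ cells and 687, 539 and 751 CPM in control KIT-positive cells, so that every later library lay far below. Its log2 fold change was -3.35 ± 0.17 SE (edgeR adjusted p = 1.06e-23). The neighbouring start was lower as well, with a log2 difference of -1.55 ± 0.28 SE (edgeR adjusted p = 7.31e-06). Across MCAM-high, MCAM-medium, KIT-positive and later controls the body peak averaged 341, 328, 659 and 64.9 CPM, highest in the differentiating cells. Inpp5f followed the same course with 53.3, 65.7, 114 and 15.9 CPM, as did the Igf2r and Airn body peak with 23, 22.7, 47.1 and 3.07 CPM. Later libraries held 13.7, 18.1, 15.8, 13.6 and 18.1 CPM at Inpp5f and 2.06, 1.88, 2.26, 5.85 and 3.29 CPM at the Igf2r and Airn body peak, without overlap with KIT-positive cells. The later minus KIT-positive differences were -2.86 ± 0.23 SE (edgeR adjusted p = 2.20e-15) and -3.98 ± 0.35 SE (edgeR adjusted p = 4.11e-14).

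At the starts of the Igf2r locus the sense gene lost signal, with 29.9, 29.4, 6.77, 24 and 17 CPM in later and 53.1, 49.6 and 83.9 CPM in control KIT-positive libraries (-1.53 ± 0.27 SE, edgeR adjusted p = 4.99e-06). Airn, the antisense RNA, had 37.8, 28.8, 26.3, 24 and 45.6 CPM in later and 44.9, 35.6 and 55.6 CPM in KIT-positive libraries, which overlap, and its difference of -0.50 ± 0.24 did not pass (edgeR adjusted p = 0.0812). Peg10, a placental gene derived from a retrotransposon (chr6:4748837-4749520), differed by -1.90 ± 0.26 SE (edgeR adjusted p = 1.56e-08). Impact had 111 ± 18 CPM in later (n = 5) and 125 ± 40.7 CPM in KIT-positive cells (SD, n = 3), a difference of -0.20 ± 0.21 that did not pass (edgeR adjusted p = 0.435).

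Some maternal-class starts moved up, though lower starts were more frequent. Over all classes, 5 of the 27 tested member peaks at annotated starts were higher and 11 lower, against 29.2% and 22.8% of all peaks. Snrpn, which encodes a splicing protein (chr7:60003001-60005220), had 84.5, 80.1, 101, 112 and 88.4 CPM in later germ cells, all above the 30.7, 36.7 and 27.2 CPM of control KIT-positive cells (1.56 ± 0.25 SE, edgeR adjusted p = 5.58e-07). A second peak 981 bp upstream of this start (chr7:60006180-60006625) fell, to 2.40, 1.88, 1.5, 1.30 and 3.29 CPM in later cells, against 15, 8.63 and 14.2 CPM in KIT-positive cells (-2.56 ± 0.46 SE, edgeR adjusted p = 4.98e-06). Kcnq1ot1 had 123, 133, 109, 96.8 and 119 CPM in later and 54.6, 55 and 69.7 CPM in KIT-positive libraries, without overlap (0.94 ± 0.22 SE, edgeR adjusted p = 3.02e-04). Mcts2, a retrogene inside H13, had 90.4, 90.1, 66.2, 63.7 and 86.2 CPM in later and 41.1, 50.7 and 54.4 CPM in KIT-positive libraries (0.69 ± 0.22 SE, edgeR adjusted p = 0.00801; lost without control KIT-positive replicate 1 and with only the later libraries named spermatocyte). H13, its host and a signal peptide peptidase gene, rose by 0.66 ± 0.25 (edgeR adjusted p = 0.0229), a call lost without control KIT-positive replicate 1, 2 or 3 or control later replicate 1 and with only the later libraries named spermatocyte. Blcap, which hosts Nnat, had 88, 60.1, 68.4, 67.6 and 78 CPM in later and 26.9, 41 and 26 CPM in KIT-positive libraries (1.23 ± 0.25 SE, edgeR adjusted p = 5.53e-05), while the Nnat peak inside it fell by 1.57 on the log2 scale (edgeR adjusted p = 0.00118). Some maternal-class starts did not pass against KIT-positive cells (edgeR adjusted p = 0.941, 0.195 and 0.307): Plagl1, a zinc finger factor, averaged 24.8 CPM in later and 25.5 CPM in KIT-positive cells, Zrsr1, a splicing-factor retrogene in Commd1, 57.9 and 44 CPM in the same groups, and Nap1l5, a histone chaperone-like retrogene, 18 and 23.2 CPM.

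Where secondary genes passed, they were lower. Ndn had 7.21, 3.13, 15.8, 14.9 and 13.7 CPM in later and 29.2, 32.4 and 37.8 CPM in control KIT-positive libraries (-1.65 ± 0.31 SE, edgeR adjusted p = 1.50e-05). Magel2 had 6.53, 3.75, 4.51, 14.3 and 9.88 CPM in later and 28.4, 17.3 and 35.5 CPM in KIT-positive libraries (-1.84 ± 0.33 SE, edgeR adjusted p = 5.08e-06). Ascl2, a bHLH factor of trophoblast (chr7:142968686-142969603), differed by -2.57 ± 0.37 SE (edgeR adjusted p = 4.40e-08) and Zim1 by -2.13 ± 0.29 SE (edgeR adjusted p = 2.05e-08). These 4 were picked among called peaks, and in none did the later libraries overlap the KIT-positive ones. Of all peaks 52.0% were called in this comparison, 22.8% lower, and the share of all peaks without overlap was not counted. Ube3a also passed, with 74.3 ± 19.1 CPM in later (n = 5) and 115 ± 16.7 CPM in KIT-positive cells (SD, n = 3; log2 -0.64 ± 0.20, adjusted p = 0.00668), a call lost with DESeq2's size factors, with its test and with only the later libraries named round spermatid (range over alternatives 0.00125 to 0.0914; with these size factors edgeR adjusted p = 0.058). Cdkn1c at -0.46 ± 0.24 (edgeR adjusted p = 0.105) and Mkrn3, a makorin zinc finger gene of the Snrpn cluster, at -0.14 ± 0.26 (edgeR adjusted p = 0.677) did not pass.

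Inside several genes, peaks of later germ cells had almost no counts in spermatogonia. Those described here in Trappc9, Kcnq1 and Mirg were not tested in the spermatogonial fit. They passed the filter on low counts through the later libraries, where they are high, so their higher calls are a description only. In Trappc9 (chr15:72824319-72825104) the later libraries had 41.2, 45.7, 38.3, 46.8 and 32.9 CPM and the control KIT-positive ones 0, 2.16 and 0 CPM, 376 counts against 2, a ratio of 80.8-fold (95% counting interval 22.2 to 670.0). Control MCAM-high libraries held 0 counts, so the peak was at least 97.6-fold higher in later germ cells, taking 3 counts over the group as the floor. Counting each fragment by its 2 ends would make that bound too high. In Kcnq1, a potassium channel gene, a peak at the start of the transcript 4933417O13Rik (chr7:143330447-143330870) had 23.4, 38.2, 14.3, 22.7 and 31.3 CPM in later and 0, 0 and 3.55 CPM in KIT-positive libraries. In Mirg, a microRNA host of the Dlk1 cluster (chr12:109738710-109739109), later libraries had 19.9, 14.4, 7.52, 7.15 and 12.1 CPM and KIT-positive libraries 0 counts, at least 17.8-fold higher. Elsewhere in the paternal class, the start peaks at Rasgrf1 and Dio3, a thyroid hormone deiodinase gene, fell by 1.73 and 2.17 on the log2 scale (edgeR adjusted p = 4.93e-05 and 0.00176). The Dio3 call was lost with only the later libraries named spermatocyte (edgeR adjusted p = 0.0506, range over alternatives 0.00142 to 0.0506). H19 had 10.9 ± 3.12 CPM in later (n = 5) and 9.35 ± 3.15 CPM in KIT-positive cells (SD, n = 3), a difference of 0.20 ± 0.42 that did not pass.

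**Figure D4:**
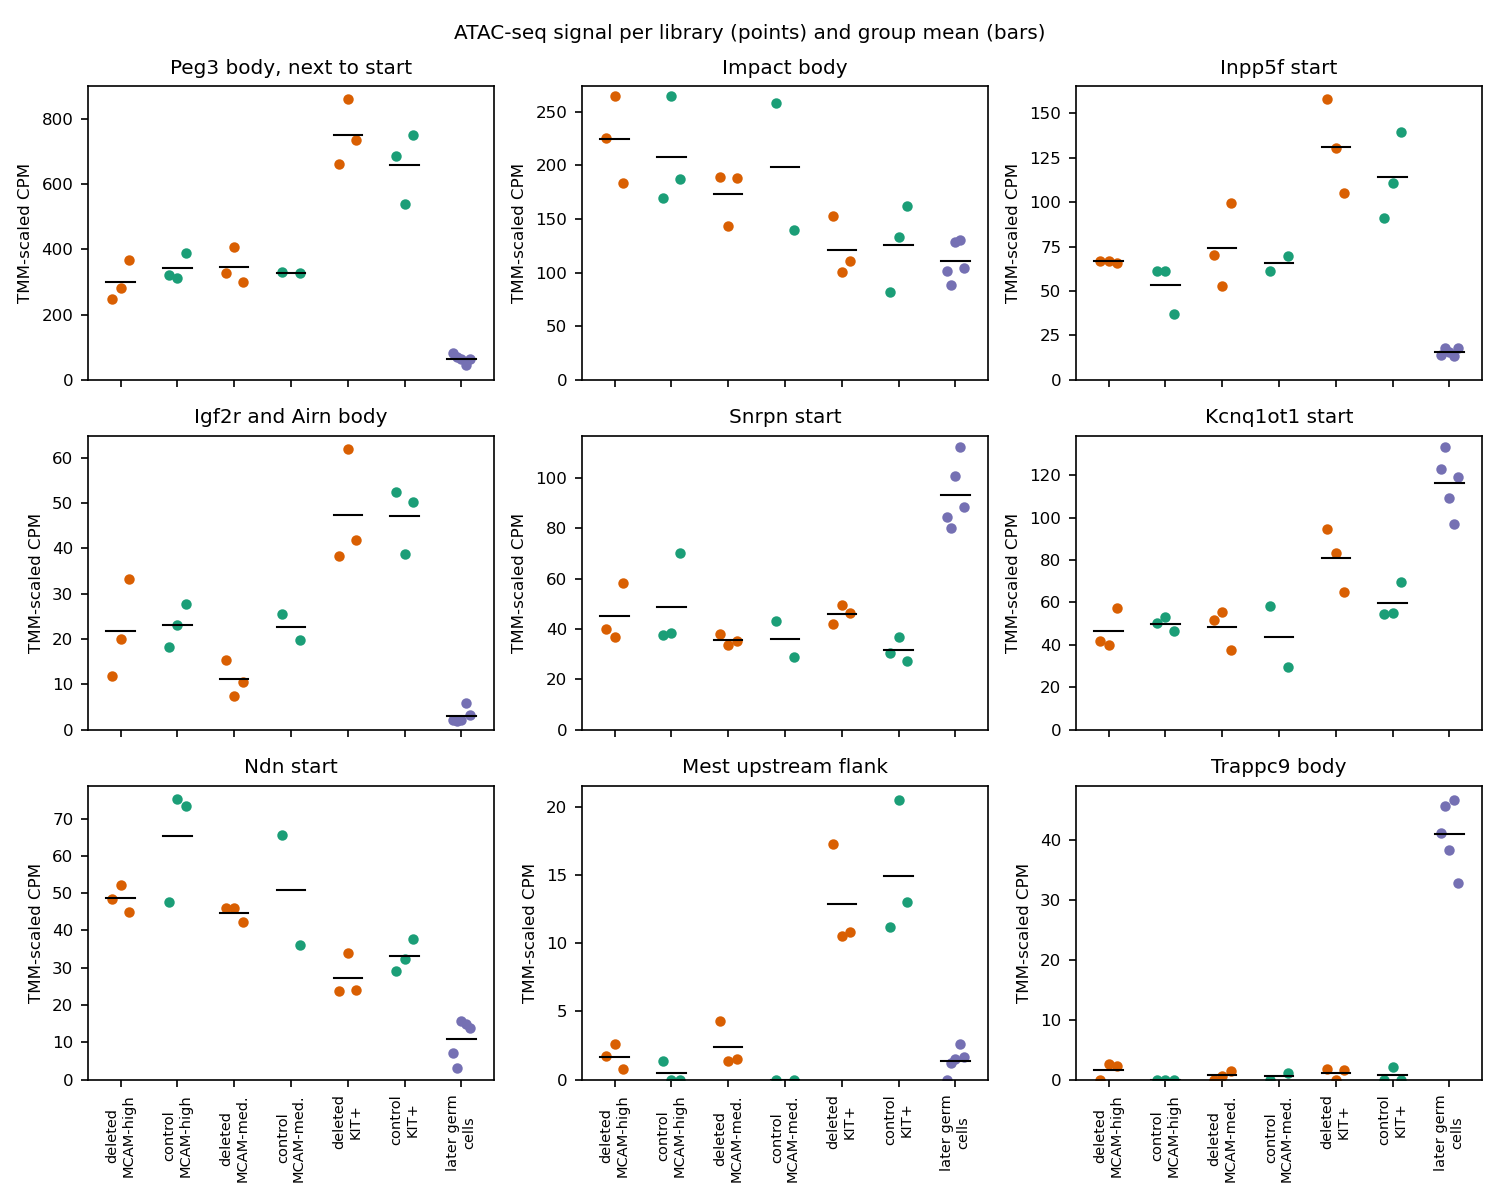
TMM-scaled CPM at 9 member peaks in every library (points; orange deleted, green control, purple later germ cells) with group means (bars). Peg3, Inpp5f and the Igf2r and Airn peak are highest in KIT-positive cells and lowest in later germ cells, Snrpn and Kcnq1ot1 are highest in later germ cells, Ndn declines, and the Trappc9 peak stands at 41 CPM in later germ cells.

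**Figure D5:**
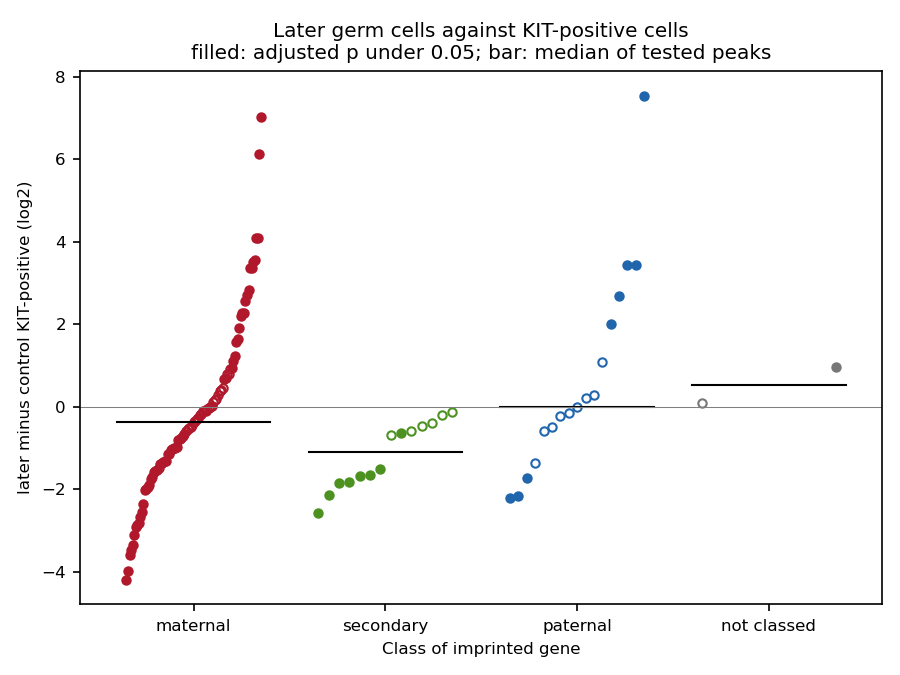
Log2 difference of later germ cells against control KIT-positive cells for each tested member peak by class (points, sorted within class; filled points passed; bars, medians). All 8 filled secondary points lie below 0, with a class median of -1.10.

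Genes that maintain imprints or write and erase DNA methylation were read at 1 peak each, at a start or gene end, for 19 of 20 listed genes (Dppa3 had none). The shares of all peaks given with them are not matched for position or level. Only 14.3% of all peaks lay at starts, with a median of 21.1 CPM in control MCAM-high cells against 4.30 CPM for all peaks. After TERT deletion 0 of 18 tested passed in any population or in the mean. In control KIT-positive against control MCAM-high cells 5 of 18 were higher and 0 lower, against 9.64% and 6.11% of all peaks: Uhrf1, the reader that brings DNMT1 to hemimethylated DNA, by 1.03 on the log2 scale (edgeR adjusted p = 0.00117), the maintenance methyltransferase gene Dnmt1 by 0.85 on the log2 scale (edgeR adjusted p = 0.00477), the remodeller Hells by 1.03 on the log2 scale (edgeR adjusted p = 0.00332), the insulator factor Ctcf by 0.88 on the log2 scale (edgeR adjusted p = 0.0163) and Arid4a by 0.59 on the log2 scale (edgeR adjusted p = 0.0269). In deleted KIT-positive against deleted MCAM-high cells 8 of 18 were higher and 0 lower, against 9.39% and 4.35% of all peaks. The mean level at Uhrf1 was 122 CPM in control KIT-positive and 59.3 CPM in control MCAM-high cells. In later germ cells against KIT-positive cells 2 of 19 were higher, Zfp57 by 0.86 on the log2 scale (edgeR adjusted p = 0.0069) and Dnmt3l, the cofactor of de novo methylation, by 2.62 on the log2 scale (edgeR adjusted p = 3.67e-05). Among the 7 lower ones were Trim28, the corepressor recruited by ZFP57, at -1.88 on the log2 scale (edgeR adjusted p = 2.31e-10), and Tet3, a methylcytosine dioxygenase, at -1.91 on the log2 scale (edgeR adjusted p = 2.96e-08). These were counted against 29.2% higher and 22.8% lower among all peaks. The median of the list was -0.45 (log2), against 0.12 for all peaks tested. Against control MCAM-high cells the median of the list had the opposite sign, with 7 higher and 5 lower of 19 (33.5% and 24.9% of all peaks) and a median of 0.33, against 0.01 for all peaks.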

How the data were processed

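ATAC-seq was read from the deposited table of raw counts per peak, 96049 peaks by 22 libraries, one column per library. The submitters' processing notes name FastQC, Bowtie2, SAMtools and Picard and the builds mm10, hg19 and GRCm38 without a role. The peak caller, merging of peaks, counting program, Tn5 offset and duplicate filter are not given in the sources used here. Between 48.8% and 73.9% of the non-zero counts per library were even.

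Peaks were assigned to genes with RefSeq of GRCm38.p6. The members, classes and lists were chosen with earlier results of these data known. For each gene the peak at its annotated start with the highest mean was named, or its strongest member peak where none lay there, together with up to 10 called members per direction by smallest p. Counts were scaled by TMM and tested with the edgeR 4.0.16 quasi-likelihood test in R 4.3.3, with filterByExpr, a fit of 17 spermatogonial libraries and a fit of 13 control libraries, and Benjamini-Hochberg adjustment over all tested peaks (threshold 0.05). SEs are the log2 fold change over the square root of F. Levels are TMM-scaled CPM over all 22 libraries. Alternatives were DESeq2 1.42.0 tests and size factors, total counts, no filter, gene bodies without flanks, a replicate block and leaving out each library. The fit was tested on simulated data. Intervals and floors cover counting error only.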

Additional observations from a re-analysis of the deposited data

Results flagged for a closer look

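Of 65 peaks looked at in the 5 later libraries, 2 held a library far from the others, with a gap to its nearest neighbour above 0.71 of the whole range. Chance flags about 1 in 20. At the start peak of Dlk1, later replicate 5 had 4.39 CPM, with the nearest later library at 1.5 CPM and the lowest at 0.650 CPM. At the start peak of Rasgrf1, later replicate 4 had 1.30 CPM, with the nearest later library at 8.14 CPM and the highest at 10.3 CPM.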

How the results depend on the processing

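No call reversed its direction under the alternatives run, and TERT deletion gave 0 called members under each of them. Leaving out each library in turn gave 13 to 19 calls for control KIT-positive against MCAM-high cells, 5 to 13 against MCAM-medium cells, 8 to 15 for deleted KIT-positive against MCAM-high cells, 59 to 70 for later against KIT-positive and 76 to 81 for later against MCAM-high cells. With total counts in place of TMM the 3 spermatogonial counts were 24, 17 and 16. Same-numbered libraries did not deviate together (correlations of 16 pairs of the same genotype from -0.419 to 0.0531), which gave no sign of pairing by number. The labels do not explain the source numbers that library names share. Across numbers, control MCAM-high replicates 1, 2 and 3 correlated at 0.419, 0.264 and 0.225 with control MCAM-medium replicates 2, 1 and 1. The 2 MCAM-medium libraries deviate in mirror image by construction. A shared source or batch under other numbers was not tested. A replicate block gave 14 calls for control KIT-positive against MCAM-high, 5 against MCAM-medium and 13 in deleted cells. In simulated data at these library sizes and replicate numbers 2-fold changes at randomly drawn peaks were mostly not recovered. Depth was not varied, so its part was not tested.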
